A study of Mus musculus with 12 samples.

Results

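The 10 circadian clock genes Arntl, Per1, Per2, Per3, Cry1, Cry2, Nr1d1, Nr1d2, Dbp and Tef were followed in ribosome-associated RNA of cortical parvalbumin interneurons. They were taken by gene symbol from the deposited expression table, in which all 10 were found among 13190 genes, once each. The mammalian clock is a transcriptional feedback loop. BMAL1, encoded by Arntl, pairs with CLOCK and activates genes that carry E-box motifs, among them the Period and Cryptochrome genes, whose proteins then repress the pair. A second loop runs through REV-ERB proteins, encoded by Nr1d1 and Nr1d2, which repress Arntl from ROR elements. Dbp and Tef encode PAR bZIP factors that act at D-box motifs, and Dbp is itself a direct target of the BMAL1 pair, so its RNA is widely read as an output of the loop. In mouse tissues Dbp, Per and Rev-erb RNAs peak on the side of the daily cycle opposite to Arntl. The hour at which tissue was taken was not given in the sources used here.

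The study crossed genotype with housing. All mice were C57BL/6 and carried PV-Cre k/+ and RiboTag k/k, in which Cre made under the parvalbumin locus switches on a tagged ribosomal protein, so that ribosomes of these fast-spiking GABAergic cells can be pulled down with their RNA. Wild-type and Nptx2 KO mice were each kept in groups or singly, giving 4 groups of 3 libraries, and PV-Cre and RiboTag were shared by the wild-type controls. Single housing began at weaning and lasted at least 4 weeks, and the labels call it social stress. Age at collection, and whether animals were pooled, were not given in the sources used here. Nptx2 encodes a secreted pentraxin that clusters AMPA receptors on these interneurons. Its RNA ranged from 2.37 to 2.74 over the 6 libraries labelled KO and from 2.23 to 2.62 over the 6 of wild type, so a whole-gene value did not check the genotype, and genotypes here are those of the labels.

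The start regions of 5 of these genes are shown because their RNAs fall on opposite sides of the comparison that follows or, for Per3, because it alone of the matched genes held a D-box. RefSeq starts on GRCm38.p6 were matched for 9 of the 10 genes, in 12 windows of 300 bases, from 250 before to 50 after the start. Each is written 5′ to 3′ on the strand of the gene, and capitals mark a motif. The windows are Dbp at chr7:45704997-45705296 (plus strand), Nr1d1 at chr11:98775328-98775627 (minus), Arntl at chr7:113207261-113207560 (plus), Cry1 at chr10:85185005-85185304 (minus) and Per3 at chr4:151044616-151044915 (minus).
Dbp: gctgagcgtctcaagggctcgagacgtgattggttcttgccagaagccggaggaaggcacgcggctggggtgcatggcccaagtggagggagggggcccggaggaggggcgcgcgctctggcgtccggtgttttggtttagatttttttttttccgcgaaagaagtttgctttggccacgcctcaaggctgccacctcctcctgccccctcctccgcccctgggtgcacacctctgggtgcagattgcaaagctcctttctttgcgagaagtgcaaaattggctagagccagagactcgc
Nr1d1: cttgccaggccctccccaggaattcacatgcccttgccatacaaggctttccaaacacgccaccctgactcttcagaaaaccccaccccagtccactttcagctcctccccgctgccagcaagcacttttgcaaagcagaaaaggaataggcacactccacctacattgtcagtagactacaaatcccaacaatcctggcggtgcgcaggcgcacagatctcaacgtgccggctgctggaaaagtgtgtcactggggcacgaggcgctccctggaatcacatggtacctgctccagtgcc
Arntl: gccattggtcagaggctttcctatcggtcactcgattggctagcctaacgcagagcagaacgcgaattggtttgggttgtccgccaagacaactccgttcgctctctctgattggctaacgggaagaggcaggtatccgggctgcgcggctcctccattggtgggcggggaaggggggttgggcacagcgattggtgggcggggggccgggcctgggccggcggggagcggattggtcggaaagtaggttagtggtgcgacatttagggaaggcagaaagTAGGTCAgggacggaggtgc
Cry1: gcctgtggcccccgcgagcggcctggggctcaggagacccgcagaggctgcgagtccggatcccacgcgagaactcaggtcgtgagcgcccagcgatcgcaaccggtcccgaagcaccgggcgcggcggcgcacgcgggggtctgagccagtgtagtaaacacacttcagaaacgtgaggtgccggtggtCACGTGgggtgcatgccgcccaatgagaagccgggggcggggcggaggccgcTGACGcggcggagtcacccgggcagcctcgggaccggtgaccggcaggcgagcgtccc
Per3: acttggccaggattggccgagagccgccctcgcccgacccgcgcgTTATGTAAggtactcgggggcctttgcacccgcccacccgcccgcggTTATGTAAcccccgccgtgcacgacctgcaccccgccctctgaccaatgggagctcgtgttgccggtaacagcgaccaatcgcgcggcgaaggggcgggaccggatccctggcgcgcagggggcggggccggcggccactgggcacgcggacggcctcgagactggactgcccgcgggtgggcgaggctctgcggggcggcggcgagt

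Motifs were searched on both strands: the E-box CACGTG, the D-box TTATGTAA or TTACATAA, the ROR element core TAGGTCA or TGGGTCA, and the CRE core TGACG. The E-box was in 7.15% of all 32851 windows of the reference table, the D-box in 0.938%, the ROR core in 6.45% and the CRE core in 20.8%. Per3 held 2 copies of the D-box, which begin at positions -205 and -158 relative to the gene start, the first base of the gene being +1. Cry1 held an E-box at -60 and a CRE core at -8. A single E-box also lay in 1 of the 2 Per1 windows and in both Tef windows. CRE cores lay in both Per1 windows and in the Cry2 window. The Arntl window shown held an ROR core at +31, and the second Arntl window, whose start lies upstream of this one, held none of the motifs. No listed motif was in the Dbp, Nr1d1 or Nr1d2 window, which says only that these letters are not within those bases.

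Libraries are named by group and barcode, because the columns carry no replicate number. All had the same distribution of values, with correlations of 0.980 to 0.986 within groups and also between groups. Pvalb was at 9.65 to 10.28 in all 12. Markers of other cells were detected below Pvalb, such as the excitatory neuron transporter Slc17a7 at 5.48 to 5.79 and the astrocyte channel Aqp4 at 1.15 to 1.45. Levels of the marker lists overlapped. Of the parvalbumin markers, Gad1 was at 10.51 to 10.68 but Kcns3 at 1.65 to 5.01 and Erbb4 at 1.12 to 2.09. Npy, a marker of other interneurons, was at 6.82 to 8.74. These levels do not measure purity. Y-linked transcripts split the libraries: Ddx3y was above a level of 1 in 5 libraries, namely all 3 of single-housed wild type and CTTGTA and AGTCAA of single-housed KO. It was not above that level in the other 7. A score over 15 amino acid response genes also stood apart in 5 libraries: it was 0.48 and 0.55 in group-housed wild-type CCGTCC and GTCCGC, 0.68 in group-housed KO CGATGT, and 0.50 and 0.53 in single-housed KO CTTGTA and AGTCAA, against -0.46 to -0.34 in the other 7 (mean log2 deviation from the gene means over 12 libraries).

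The clock genes covered a wide range of levels, given as log2(FPKM + 1), where FPKM is fragments per kilobase of transcript, scaled to library size. Tef was the most abundant, with a mean of 5.59 over 12 libraries, followed by Nr1d2 at 5.21, Dbp at 5.05, Cry2 at 4.73, Nr1d1 at 4.42, Per1 at 3.12, Arntl at 2.86, Cry1 at 2.83, Per2 at 1.19 and Per3 at 0.90. Of neighbours in this order, Tef was above Nr1d2, Cry2 above Nr1d1, Nr1d1 above Per1, Cry1 above Per2 and Per2 above Per3 in 12 of 12 libraries. The others changed places: Nr1d2 was above Dbp in 11 libraries, Arntl above Cry1 in 10, Dbp above Cry2 in 9 and Per1 above Arntl in 9. Per3 did not pass the filter of 1 FPKM in at least 3 libraries, its range being 0.812 to 1.002, so 9 of the 10 genes were tested among 12716.

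**Figure D1:**
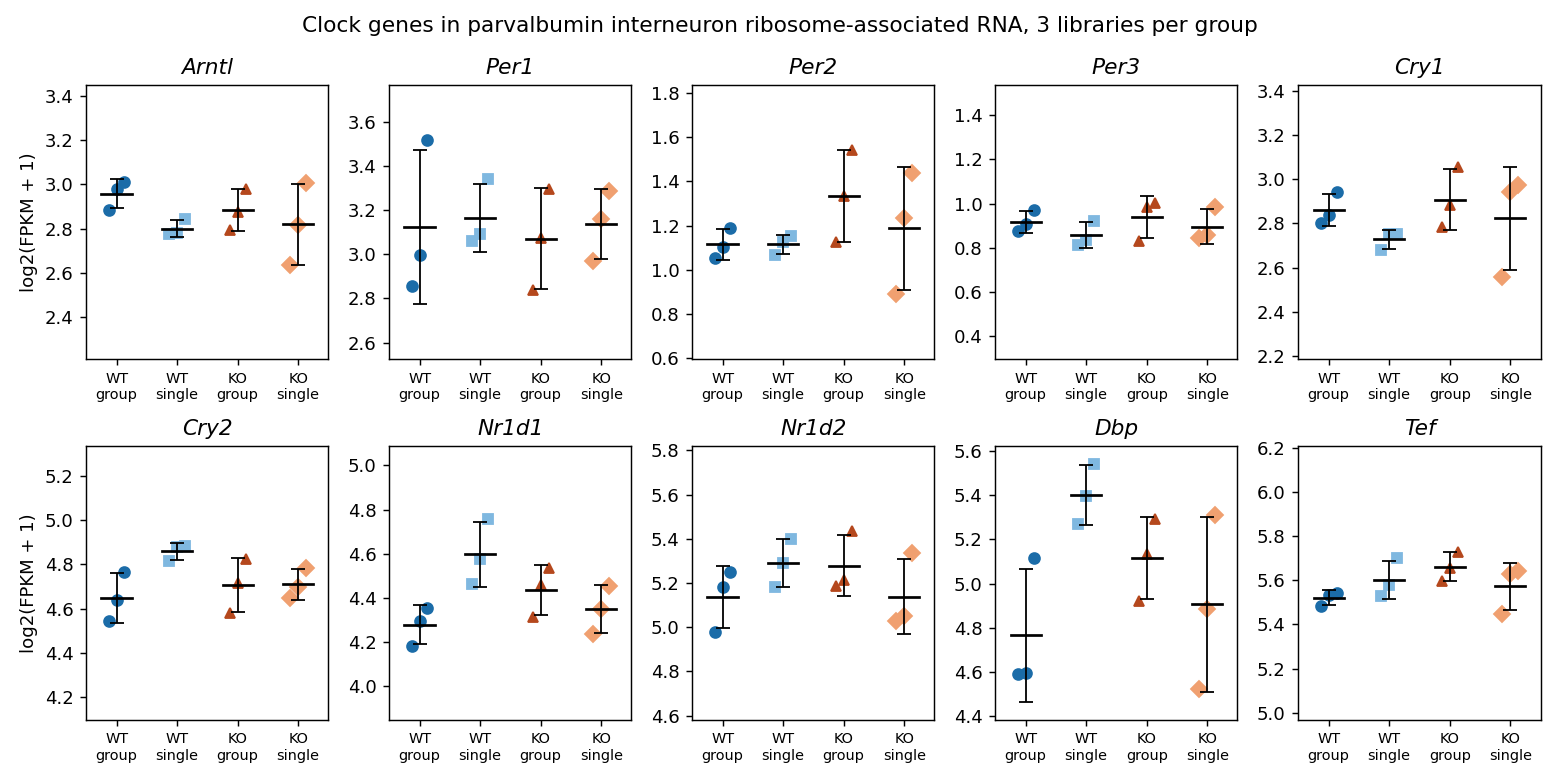
Level of each clock gene in log2(FPKM + 1) (vertical axis, the same span in every panel) for the 4 groups (horizontal axis); symbols are libraries, horizontal lines are group means and bars are SD (n = 3). Dbp had the widest spread, from 4.52 to 5.54, and Tef stayed between 5.45 and 5.73.

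Among themselves the genes differed in how much they varied. Dbp had an SD of 0.34 over 12 libraries, more than 91.2% of tested genes. Per1, a Period gene that is also an immediate early target of CREB, had 0.20 (79.9%), and Per2, its paralog in the repressor complex, 0.18 (74.5%). Tef was steady at 0.0854 (27.1%), and Arntl and Cry2 lay near the median SD of all tested genes, which was 0.118. In this bulk RNA, fewer cells of a type and less RNA per cell cannot be told apart. The series text calls the replicates biological but does not say that each came from its own animals, so p-values measure the spread between these libraries.

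Single housing was compared with group housing in wild type. Y-linked signal separated these libraries exactly as housing did, so sex and housing cannot be told apart in this comparison. Dbp, Nr1d1 and Cry2 had higher values in all 3 single-housed libraries than in any group-housed one, and Arntl and Cry1 lower values, while Per1, Per2, Nr1d2 and Tef overlapped. No clock gene passed the test over all genes (limma with Benjamini-Hochberg adjustment, 0 of 9, where 0.0393% of all tested genes passed). At an unadjusted p under 0.05 there were 3 of 9, against 12.3% of all genes. The groups did not overlap for 5 of 9 clock genes, against 21.9% of all tested genes: 3 higher, against 10.4%, and 2 lower, against 11.5%.

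Dbp was at 5.11, 4.59 and 4.595 in group-housed wild type (in AGTTCC, in CCGTCC and in GTCCGC) and at 5.54, 5.27 and 5.39 in single-housed wild type (in TGACCA, in ACAGTG and in GCCAAT). The group means were 4.77 ± 0.30 and 5.40 ± 0.14 (SD, n = 3 each), a difference of +0.63 ± 0.20 (log2 ± SE, limma, unadjusted p = 0.00996, adjusted p = 0.284). A single group-housed library, AGTTCC, came close to the lowest single-housed value. Without the 5 libraries of high amino acid response, an alternative chosen after seeing the data that leaves AGTTCC as the lone group-housed wild-type library, the difference was +0.29 ± 0.14. That lone library was assumed to vary like the others. With a term for Y-linked signal, which only the single-housed KO libraries can estimate, the difference was +1.24 (adjusted p = 0.111 by limma) for Dbp and +0.48 for Nr1d1 (adjusted p = 0.2).

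Nr1d1, the gene of the repressor REV-ERB alpha, was at 4.30, 4.36 and 4.18 in group housing and at 4.76, 4.46 and 4.58 in single housing. Its difference was +0.32 ± 0.09 (unadjusted p = 0.00551, adjusted p = 0.251 by limma), and +0.30 ± 0.15 without the 5 libraries. Cry2, which encodes a cryptochrome repressor, was at 4.54, 4.77 and 4.64 against 4.88, 4.81 and 4.88. The single-housed values lay close together, and the difference was +0.21 ± 0.07 (unadjusted p = 0.018, adjusted p = 0.312 by limma). Without the 5 libraries it was +0.32 ± 0.08.

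In the opposite direction, Arntl was at 3.01, 2.98 and 2.88 in group housing and at 2.78, 2.84 and 2.78 in single housing. The groups came within a narrow gap of each other, and the difference was -0.16 ± 0.09 (adjusted p = 0.5 by limma). Cry1, the paralog of Cry2, was at 2.80, 2.94 and 2.84 against 2.68, 2.75 and 2.75, a difference of -0.13 ± 0.11 (adjusted p = 0.651). The intervals of both reached across 0, from -0.36 to 0.04 for Arntl and from -0.38 to 0.11 for Cry1. With the term for Y-linked signal Arntl was at -0.43 and Cry1 at -0.54 (adjusted p = 0.167 and 0.12 by limma). Without the 5 libraries of high amino acid response they were at -0.21 and -0.07. The difference between the paralogs Cry1 and Cry2 was not tested.

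For the remaining genes the difference was +0.15 ± 0.11 for Nr1d2, which encodes REV-ERB beta, +0.08 ± 0.07 for Tef, +0.04 ± 0.18 for Per1 and 0.00 ± 0.14 for Per2. Per1 was at 2.86, 3.52 and 2.996 in group housing and at 3.34, 3.09 and 3.06 in single housing, so a single group-housed library, CCGTCC, was above every other. Per2 lay between 1.05 and 1.19 in all 6 libraries. The interval for Per1, -0.35 to 0.43, includes the difference seen for Nr1d1, and that for Per2 runs from -0.31 to 0.31. Over the 9 genes the median difference was +0.08, with 6 above 0, beside a median of 0.0032 and 50.9% above 0 over all tested genes. With the term for Y-linked signal Nr1d2 was at +0.45, Tef at +0.16, Per1 at +0.07 and Per2 at -0.45. Their adjusted p ran from 0.231 to 0.938 by limma.

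**Figure D2:**
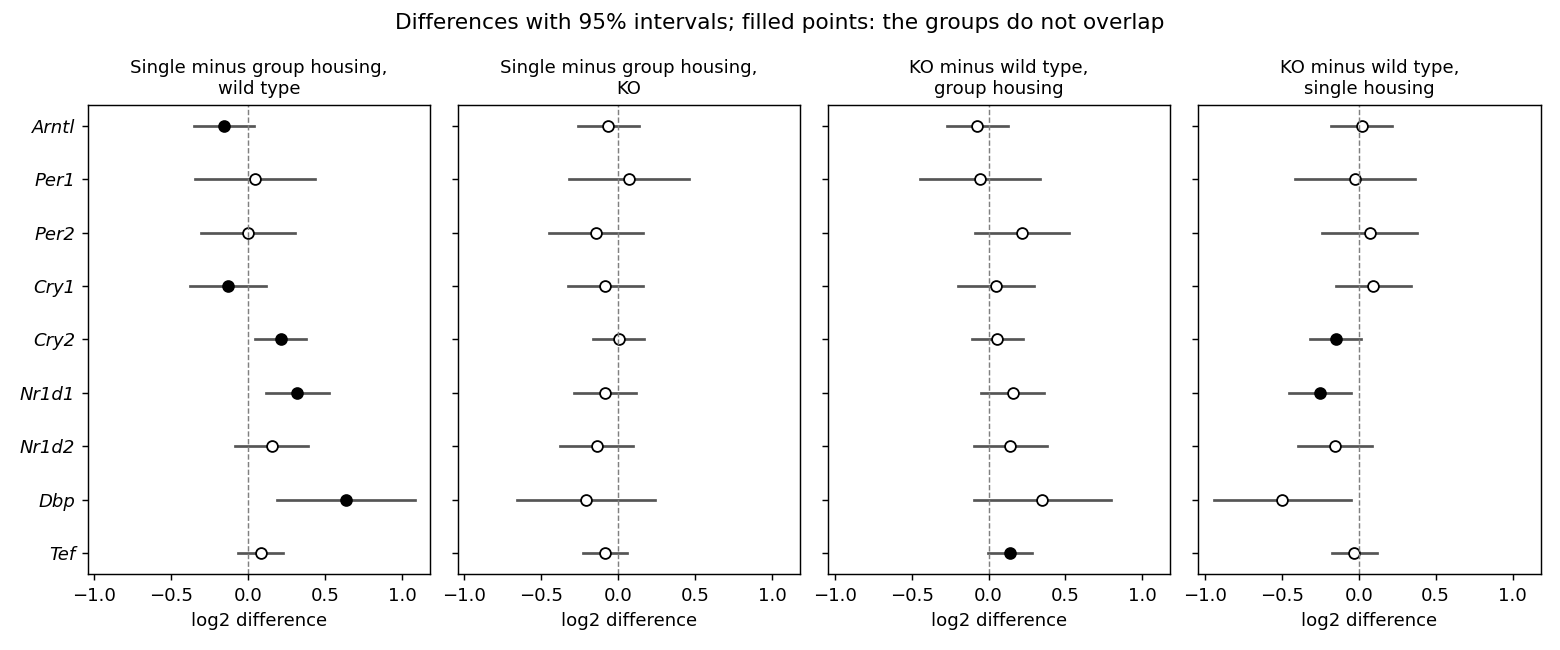
Difference in log2(FPKM + 1) (horizontal axis) of the 9 tested clock genes (vertical axis) in 4 comparisons; points are limma estimates, lines are 95% intervals and filled points are genes whose groups do not overlap. In wild type 5 points are filled, with Dbp at +0.63, and in KO none is.

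Other measures moved with housing in wild type. Y-linked signal separated these 6 libraries exactly as housing did, so sex and housing cannot be told apart in them. The summed level of 10 tested and 1 untested immediate early genes was 96.6 to 141 FPKM in group housing and 54.1 to 58.0 in single housing. Fos, an activity-induced transcription factor, was lower in single housing (-1.91 ± 0.23, adjusted p = 0.0225), and so was Egr1 (-1.74 ± 0.21, adjusted p = 0.0225 by limma). For the amino acid response list the summed level was 430 to 850 FPKM against 400 to 452, with 13 of 14 tested genes below 0. Markers of other interneurons, 7 of 8 in the table, summed to 504 to 775 against 354 to 457 FPKM, and Ttr, the 1 choroid plexus marker of 3 in the table, was at 42.9 to 69.1 against 9.27 to 33.1 FPKM. The 6 microglia markers summed to 19.4 to 24.2 against 18.5 to 18.7 FPKM, and all 6 had lower means in single housing. All but Htr3a of the interneuron markers were in the table, and no marker of these lists in the table was at 0. The part of these measures in the clock gene values was not tested.

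Dbp and Nr1d1 each share exonic bases with a gene on the opposite strand in GENCODE M21. Dbp (chromosome 7, 45705088 to 45710203) shares 539 of 2993 with Sphk2, a sphingosine kinase gene. Nr1d1 (chromosome 11, 98767932 to 98775333) shares 263 of 3077 with Thra, which encodes thyroid hormone receptor alpha. The kit keeps strand, but whether counting used it was not given in the sources used here. In the same wild-type comparison Sphk2 was at -0.12 ± 0.21 and Thra at -0.034 ± 0.105. Tef (chromosome 15, 81802421 to 81826863), Arntl (chromosome 7, 113207465 to 113314126) and Cry2 (chromosome 2, 92403646 to 92434043) overlap noncoding genes on the other strand by 193, 33 and 295 exonic bases. No exonic overlap was annotated for Per1 (chromosome 11, 69095217 to 69109960), Per2 (chromosome 1, 91415982 to 91459324), Per3 (chromosome 4, 151003652 to 151044665), Nr1d2 (chromosome 14, 18204054 to 18239127) or Cry1 (chromosome 10, 85131700 to 85185064).

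Within the libraries labelled KO, the same housing comparison gave no such separation. The groups overlapped for all 9 tested clock genes (0 of 9, against 6.8% of all tested genes, 3.47% higher and 3.33% lower), and no clock gene passed (limma, 0 of 9, against 0.00786% of all genes, and 0 of 9 at an unadjusted p under 0.05, against 4.36%). Dbp was at 5.29, 4.92 and 5.14 in group-housed KO (in CGATGT, in ATGTCA and in GTGAAA) and at 5.31, 4.88 and 4.52 in single-housed KO (in CAGATC, in CTTGTA and in AGTCAA). The difference was -0.21 ± 0.20, with an interval of -0.66 to 0.23. CAGATC, without Y-linked signal and without a high amino acid response, had the highest Dbp and the lowest Arntl, at 2.64, of the 3.

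The 7 negative differences in KO ran from -0.21 for Dbp to -0.06 for Arntl, and Per1 was at +0.07 ± 0.18. Nr1d1 was at 4.46, 4.31 and 4.53 in group housing and at 4.45, 4.35 and 4.24 in single housing (-0.09 ± 0.09). Cry2 was at 0.00 ± 0.07. Ttr was at 35.2 to 37.0 FPKM in single-housed and 8.38 to 31.6 in group-housed KO, and its part in these values was not tested. Within libraries that lack Y-linked signal, single-housed KO holds CAGATC alone, so no replicated value could be had for that set. With a term for Y-linked signal Dbp was at +0.19 and Nr1d1 at +0.02, and without the 5 libraries of high amino acid response, where CAGATC is the lone single-housed KO library, Dbp was at +0.28 ± 0.15, so its sign in KO differed between these settings. Arntl and Cry1 were at -0.25 and -0.35 with the term, and at -0.29 and -0.28 without the 5 libraries. In both settings CAGATC alone sets the single-housed KO level. Without CAGATC, Arntl was at +0.03 and Cry1 at +0.05.

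KO was then compared with wild type in group housing, where no library had Y-linked signal. The values in KO were higher for 7 of 9 clock genes, with a median of +0.14, beside 48.1% of all tested genes above 0 and a median of -0.0040 over all. No gene passed in this comparison, clock genes included (limma, 0 of 9, against 0% of all tested genes, and 0 of 9 at an unadjusted p under 0.05, against 3.66%). Tef, at 5.73, 5.65 and 5.598 in KO and 5.54, 5.48 and 5.53 in wild type, was the 1 of 9 whose groups did not overlap, against 7.01% of all genes, 3.15% higher and 3.86% lower (+0.14 ± 0.07, adjusted p = 1). Dbp was at +0.35 ± 0.20 and Nr1d1 at +0.16 ± 0.09, while Arntl was at -0.07 ± 0.09. Per2 was at 1.54, 1.13 and 1.33 in KO, the highest being CGATGT, and its difference was +0.22 ± 0.14. Without the libraries of high amino acid response Dbp was at -0.085 ± 0.146. The summed level of immediate early genes was 56.0 to 100.4 FPKM in KO, below or within the 96.6 to 141 of wild type, and that of the amino acid response list 423 to 874 FPKM against 430 to 850. Ttr was at 8.38 to 31.6 FPKM in KO, below the 42.9 to 69.1 of wild type. Their part in these values was not tested.

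In single housing KO was likewise compared with wild type. Nr1d1 and Cry2 were lower in all 3 KO libraries than in any wild-type one (2 of 9, against 15.8% of all tested genes, 7.72% higher and 8.06% lower). Nr1d1 differed by -0.25 ± 0.09 (unadjusted p = 0.0203, adjusted p = 0.594 by limma) and Cry2, at 4.70, 4.78 and 4.65 in KO, by -0.15 ± 0.07 (adjusted p = 0.638). Dbp differed by -0.50 ± 0.20 (unadjusted p = 0.0327, adjusted p = 0.621 by limma), with CAGATC inside the wild-type range. None of the 9 passed (limma, 0 of 9, against 0.0393% of all genes). At an unadjusted p under 0.05 there were 2 of 9, against 7.93% of all genes.

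Leaving out CAGATC, which restricts the comparison to libraries with Y-linked signal, gave -0.70 for Dbp and -0.30 for Nr1d1. The 2 KO libraries left are those of high amino acid response. Without these and the other 3 such libraries, which leaves CAGATC alone for KO, Dbp was at -0.091 ± 0.137 and Nr1d1 at -0.14 ± 0.15. The summed amino acid response level was 412 to 795 FPKM in KO and 400 to 452 in wild type, and the immediate early level 56.5 to 91.8 against 54.1 to 58.0. The 7 markers of other interneurons summed to 502 to 676 FPKM in KO and 354 to 457 in wild type, without overlap, with 6 of 7 higher in KO, and Ttr was at 35.2 to 37.0 against 9.27 to 33.1 FPKM. Their part in these values was not tested. In the authors' deposited table, which gives wild type minus KO, the difference in single housing was +0.50 for Dbp and +0.25 for Nr1d1, with adjusted p of 0.632 and 0.607. For Per3, which did not pass the filter, it was -0.038 in single and -0.021 in group housing. The authors' deposited table gave an adjusted p of 1 for every clock gene in group housing. Both genotype comparisons share all their libraries with the housing comparisons above. The single-housed wild-type libraries enter with opposite signs, so high values in them raise the housing difference and lower KO minus wild type.

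The test of the difference between the housing effects, the interaction, gave -0.85 ± 0.28 for Dbp (unadjusted p = 0.0136, adjusted p = 0.646 by limma) and -0.41 ± 0.13 for Nr1d1 (unadjusted p = 0.00999, adjusted p = 0.646). Cry2 was at -0.21 ± 0.11, Nr1d2 at -0.29 ± 0.15 and Tef at -0.17 ± 0.09, each with an interval that included 0. None of the 9 passed (limma, against 0.00786% of all genes), and 2 of 9 had an unadjusted p under 0.05, against 7.71%. A different housing effect in KO was therefore not shown for any clock gene. In single housing, Y-linked signal was in every wild-type library but not in CAGATC of KO. With a term for it the interaction was -1.05 for Dbp, -0.46 for Nr1d1 and -0.39 for Nr1d2 (adjusted p = 0.246, 0.279 and 0.331 by limma). Without the 5 libraries of high amino acid response, where group-housed wild type is AGTTCC alone and single-housed KO is CAGATC alone, the value was -0.0060 ± 0.2000 for Dbp and -0.27 ± 0.21 for Nr1d1, with both lone libraries assumed to vary like the others.

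Across libraries, Nr1d1 went with Dbp, and Arntl against it by rank. Dbp was the common reference for 9 relations, and Per1 with Fos was the tenth, with p-values adjusted over the 10. The strongest was Dbp with Nr1d1 (r = 0.85, permutation p = 0.00039, adjusted 0.0039; Spearman's rho = 0.82, permutation p = 0.00198, adjusted 0.0198; 12 libraries). It kept an r of 0.89 (permutation p = 0.00085, adjusted 0.0085) without CCGTCC and AGTCAA, the libraries farthest from the median of Dbp. With group means subtracted r was 0.65 (exact permutation p within groups = 0.034, adjusted 0.34), so within groups it did not pass. In the 7 libraries without Y-linked signal r was 0.70 (exact permutation p = 0.0887), and in the 7 without a high amino acid response 0.86 (exact permutation p = 0.0177, adjusted 0.0883), both chosen after seeing the data.

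Dbp and Nr1d2 had r = 0.74 (permutation p = 0.00649, adjusted 0.0324) and rho = 0.69 (permutation p = 0.0165, adjusted 0.0551). Without the 2 farthest libraries r was 0.53 (permutation p = 0.114, adjusted 0.361). On leaving out each library r stayed between 0.67 and 0.87. The call, which was near the threshold, was lost without CCGTCC (r = 0.67), ACAGTG (0.73), GCCAAT (0.70), CAGATC (0.72) or AGTCAA (0.68). With group means subtracted r was 0.67 (exact permutation p = 0.0872). It was 0.82 in the 7 libraries without Y-linked signal (exact permutation p = 0.0145, adjusted 0.145) and 0.28 in the 7 without a high amino acid response (exact permutation p = 0.534).

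Arntl ran against Dbp, with r = -0.66 (permutation p = 0.0195, adjusted 0.0649) and rho = -0.78 (permutation p = 0.00447, adjusted 0.0223). It passed by rank and not by r, and r passed on leaving out AGTTCC (-0.75) or GTCCGC (-0.71). Without the 2 farthest libraries r was -0.50 (permutation p = 0.144), and with group means subtracted -0.67 (exact permutation p = 0.113). The values were -0.57 in the 7 libraries without Y-linked signal and -0.71 in the 7 without a high amino acid response (exact permutation p = 0.168 and 0.0687). Cry1 had r = -0.55 (permutation p = 0.0685, adjusted 0.131) and rho = -0.66 (permutation p = 0.0222, adjusted 0.0554). Without CGATGT, where both Dbp and Cry1 were high, r of Cry1 was -0.79 (permutation p = 0.00366, adjusted 0.0183).

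The other relations did not pass. For Cry2 r was 0.53 and rho 0.61 (permutation p = 0.0772 and 0.0403, adjusted 0.131 and 0.0806), and for Tef r was 0.53 and rho 0.39 (permutation p = 0.0788 and 0.21, adjusted 0.131 and 0.351). Per1, Per2 and Per3 had r of 0.052, -0.12 and -0.16 and rho of 0.22, -0.25 and -0.29 with Dbp (permutation p from 0.366 to 0.871). Per1 and Fos, both induced by synaptic activity in neurons, had r = -0.017 and rho = -0.070 (permutation p = 0.957 and 0.835). The highest Per1 value, 3.52 in CCGTCC, fell in the library with the highest immediate early score, 0.84, but the other group-housed wild-type libraries had scores of 0.31 and 0.53 with Per1 at 2.86 and 2.996. Leaving out the 2 libraries farthest from the median of Per1 gave r = -0.29.

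**Figure D3:**
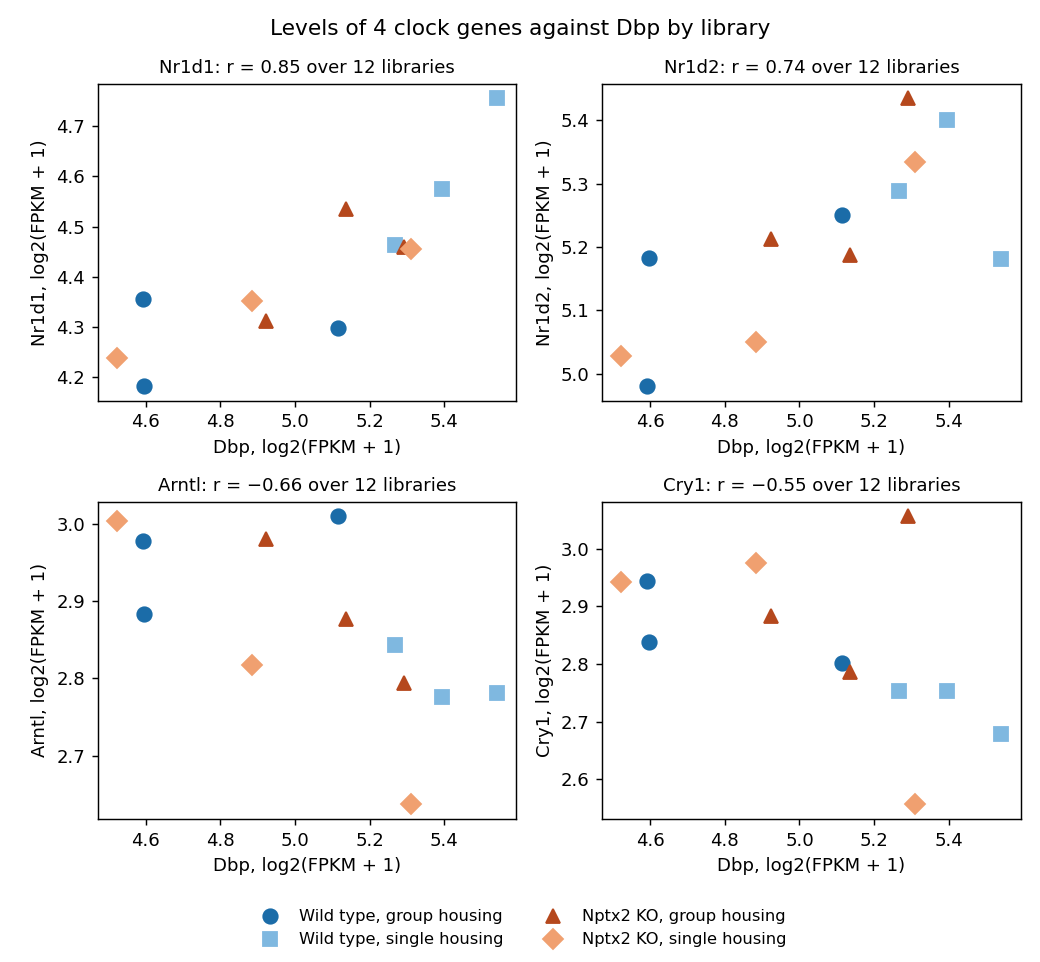
Level of Nr1d1, Nr1d2, Arntl and Cry1 (vertical axes) against Dbp (horizontal axes), all in log2(FPKM + 1), with 1 symbol per library coloured by group. Nr1d1 and Nr1d2 increase with Dbp (r = 0.85 and 0.74), and Arntl and Cry1 decrease (r = -0.66 and -0.55).

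The library-by-library pattern shows where this covariation lies. Single-housed wild type combined high Dbp with low Arntl and Cry1, as did CAGATC of single-housed KO, with Dbp at 5.31, Arntl at 2.64 and Cry1 at 2.56. The low end of Dbp was held by AGTCAA at 4.52, CCGTCC at 4.59 and GTCCGC at 4.595, where Arntl was at 2.88 to 3.004. These 3 and CTTGTA, at 4.88, are libraries of high amino acid response. CGATGT, the fifth such library, had Dbp at 5.29, inside the upper range, together with the highest Per2 (1.54) and Cry1 (3.06). The part of the amino acid response in the order of Dbp was not tested.

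**Figure D4:**
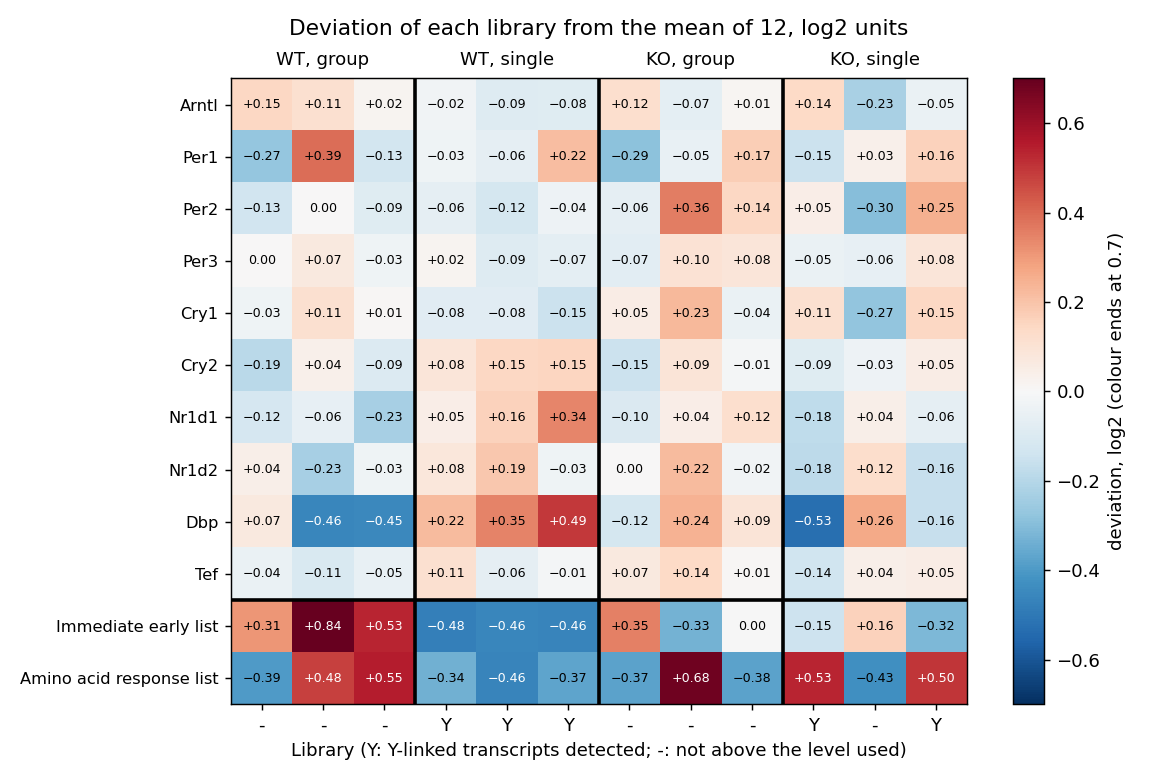
Deviation of each library from the mean of 12 (colour and printed value, log2 units) for the 10 clock genes, with the scores of the immediate early and amino acid response lists below the line; columns are libraries in 4 groups of 3, marked Y where Y-linked transcripts were above the level used. Dbp is above its mean in each library of single-housed wild type and at -0.53 in 1 single-housed KO library.

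Of 17 other clock genes, all in the table, 16 were tested and 0 passed in any of the 5 comparisons (limma). At an unadjusted p under 0.05 there were 3 of 16 for housing in wild type, beside 12.3% of all tested genes, 1 for housing in KO (4.36% of all), 1 for KO in group housing (3.66%), 2 for KO in single housing (7.93%) and 2 for the interaction (7.71%). Nfil3, whose product E4BP4 competes with PAR bZIP factors at D-boxes, was at 2.38, 2.62 and 2.60 in group-housed and 2.26, 2.07 and 2.03 in single-housed wild type. Its groups did not overlap, as for 21.9% of all tested genes, opposite in direction to Dbp (-0.41 ± 0.10, unadjusted p = 0.00233, adjusted p = 0.232 by limma). Bhlhe40, which encodes the E-box repressor DEC1, was at -0.32 ± 0.09 (adjusted p = 0.240), and its relative Bhlhe41 at +0.23 ± 0.12. Neither gene's groups overlapped. The same held for Ciart, which encodes a repressor of the BMAL1 pair, at 3.18 to 3.55 in group and 3.74 to 3.98 in single housing. Of the 16 tested genes only Nfil3, Bhlhe40, Bhlhe41 and Ciart were separated in this way, beside 21.9% of all tested genes. Rora, the activator at ROR elements, was at +0.46 ± 0.19, with 2.40 in AGTTCC and 2.96 in CCGTCC below the 3.27 to 3.42 of the other 10 libraries.

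In KO against wild type in single housing, Bhlhe40 was at +0.275 ± 0.090 and Nfil3 at +0.28 ± 0.10 (adjusted p = 0.567 and 0.597). Fbxl21, an F-box gene whose product binds cryptochromes, was at -0.24 ± 0.13. The groups did not overlap for Bhlhe40 and Fbxl21, as for 15.8% of all tested genes. For the interaction Bhlhe40 was at +0.39 ± 0.13, Nfil3 at +0.41 ± 0.15 and Ciart at -0.63 ± 0.30 (adjusted p = 0.646 to 0.662). For KO in group housing Rora was at +0.45 ± 0.19 (adjusted p = 1). Clock, the partner of Arntl, stayed between 2.51 and 2.91 in all libraries.

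Of 7 rhythmic output genes 6 were tested and 0 passed in any comparison (limma). At an unadjusted p under 0.05 there were 2 of 6 for housing in wild type, beside 12.3% of all tested genes, and 1 for KO in single housing, beside 7.93%. Usp2, a deubiquitinase gene that cycles in many mouse tissues, was at 4.25, 4.22 and 4.17 in group-housed and 4.42, 4.47 and 4.50 in single-housed wild type (+0.25 ± 0.10, adjusted p = 0.353). Cirbp, an RNA-binding protein gene induced by mild cold, was at +0.60 ± 0.24 in the same comparison, and neither gene's groups overlapped, as for 21.9% of all tested genes. Rbm3, a second cold-induced gene, was at +0.38 ± 0.40. In single housing Usp2 was lower in all 3 KO libraries than in wild type, a separation seen for 15.8% of all tested genes (-0.23 ± 0.10, adjusted p = 0.621).

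Glucocorticoid signalling can also induce Per1. Of 8 glucocorticoid-responsive genes 0 passed in any comparison (limma). At an unadjusted p under 0.05 there was 1 of 8 for housing in wild type, beside 12.3% of all tested genes, and 1 for KO in single housing, beside 7.93%. Their summed level was 225 to 233 FPKM in group-housed and 195 to 221 in single-housed wild type. It was 184 to 202 FPKM in group-housed KO and 152 to 227 in single-housed KO. The list score, which weighs each gene alike, overlapped in wild type, at 0.067 to 0.083 in group and 0.023 to 0.082 in single housing. There 3 of 8 genes were higher in single housing and 5 lower. The part of this list in the clock gene values was not tested. Fkbp5 was at 2.48 to 2.75, Sgk1 at 4.10 to 4.50 and Tsc22d3 at 4.31 to 6.32 over the 12 libraries.

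Genes outside the lists were ranked by their correlation with a clock gene over the 12 libraries, among 12607 genes. Those most like Dbp were Pdap1 (r = 0.95), Kcnab3 (0.91) and Upf3a (0.91). For Per1 they were Foxo4 (0.91), Gm5564 (0.91) and Trappc9 (0.89), and for Arntl they were Faap24 (0.91), Rnf26 (0.89) and Ubash3b (0.89). These are the highest of many values over libraries that share groups, so they describe the pattern only.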

How the data were processed

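Ribosome-associated RNA from parvalbumin interneurons was sequenced in 12 libraries. Per the labels' protocols the kit was a stranded mRNA one. Per the submitters' processing notes, GRCm38, HISAT2, StringTie and limma were used, with versions not given in the sources used here. The authors deposited log2(FPKM + 1) values for each gene, in columns that carry group and barcode. Sorted values differed between libraries by at most 0.0322 log2 from their mean, so the deposited values behave as quantile normalized and depth is unknown; no counting interval could be given. The same authors deposited log2 differences, p-values and moderated t and F score values for KO against wild type, as the file headers show.

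Genes with at least 1 FPKM in at least 3 libraries, 12716 in all, were fitted with limma 3.58.1 in R 4.3.3 (a mean per group, all 12 libraries, eBayes with a trend, degrees of freedom: 8 residual, 2.18 prior), and p-values took Benjamini-Hochberg adjustment over all tested genes and a threshold of 0.05, for 5 comparisons. Differences of log2(FPKM + 1) understate the changes of low genes. Relations were tested two-sided with 100000 permutations in Python 3.11.15 with numpy 2.4.6, and within groups over all 1296 arrangements. A list score is the mean over genes of the deviation from each gene's mean. Alternatives were the filter, a pseudocount of 0.1, no trend, median centring, the compared groups alone, a term for Y-linked signal, leaving out each library, and, added after seeing the data, leaving out libraries of high amino acid response and, for relations, using those without Y-linked signal. The scripts were tested on simulated data. The clock genes and all lists were chosen with earlier results of these data known. Named genes were all clock genes, up to 3 of each related list per comparison by p, the 3 genes most like Dbp, Per1 and Arntl, and fixed context genes. Aqp4, Slc17a7, Gad1, Kcns3, Erbb4, Npy, Ttr, Clock, Bhlhe41 and Rbm3, and the overlapping Sphk2 and Thra, were chosen after their values were seen. Some genes that this rule names are not reported here. Gene positions are from GENCODE M21 on GRCm38, and start regions from RefSeq on GRCm38.p6.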

Additional observations from a re-analysis of the deposited data

How the results depend on the processing

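No clock gene passed in any of the 5 comparisons under any alternative run. Over all genes, the numbers called were 5, 1, 0, 5 and 1 for housing in wild type, housing in KO, KO in group housing, KO in single housing and the interaction. They became 8, 16, 8 and 9 for the first 4 on the compared groups alone, 24, 17, 1 and 9 with a term for Y-linked signal, and 48, 39, 30, 39 and 46 without the 5 libraries of high amino acid response. A pseudocount of 0.1 gave 2 for housing in KO and 0 for the interaction, and no variance trend gave 0 for the interaction. Leaving out each library gave 2 to 9, 2 to 6, 0 to 11, 5 to 9 and 0 to 8. The cause was not tested.

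With the term for Y-linked signal the log2 difference changed sign for Dbp (0.19), Nr1d1 (0.020), Nr1d2 (0.055) and Cry2 (-0.00965) in KO housing and for Per2 in the interaction (0.0033). Without the 5 libraries it changed sign for Per2 (0.061) in wild-type housing, for Dbp (0.28), Tef (0.0019), Nr1d1 (0.032) and Nr1d2 (0.13) in KO housing, for Per1 (0.21), Dbp (-0.085) and Nr1d2 (-0.050) for KO in group housing, for Per2 (-0.23), Tef (0.027), Arntl (-0.16), Nr1d2 (0.043) and Cry1 (-0.17) for KO in single housing, and for Per1 (-0.22), Arntl (-0.081), Nr1d2 (0.093) and Cry1 (-0.21) in the interaction. The other 40 and 28 differences under these alternatives kept their sign. On leaving out each library, 16 differences changed sign: in wild-type housing Per1 (-0.092 to 0.24) and Per2 (-0.031 to 0.037); in KO housing Per1 (-0.047 to 0.18), Per2 (-0.27 to 0.0027), Arntl (-0.16 to 0.027), Cry1 (-0.16 to 0.050) and Cry2 (-0.061 to 0.060); for KO in group housing Per1 (-0.19 to 0.14) and Cry1 (-0.026 to 0.11); for KO in single housing Per1 (-0.10 to 0.062), Per2 (-0.053 to 0.22), Arntl (-0.073 to 0.11) and Tef (-0.065 to 0.033); in the interaction Per1 (-0.17 to 0.16), Per2 (-0.27 to 0.0033) and Cry1 (-0.027 to 0.18).

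With group means subtracted, r lost its call for Dbp with Nr1d1 (0.65) and Nr1d2 (0.67) and changed sign for Dbp with Per3 (0.047) and Per1 with Fos (0.23); without the 2 farthest libraries it was 0.53 for Nr1d2. In the 7 libraries without Y-linked signal the call was lost for Nr1d1 (0.70) and Nr1d2 (0.82), and the sign changed for Per1 (-0.22), Per2 (0.14), Per3 (0.088) and Per1 with Fos (0.10). In the 7 without a high amino acid response the call was lost for Nr1d1 (0.86) and Nr1d2 (0.28), and the sign changed for Tef (-0.32). Over all 12 libraries r was 0.85 for Nr1d1 and 0.74 for Nr1d2, so r of Nr1d1 did not fall in that subset. Leaving out each library gave -0.75 to -0.59 for Dbp with Arntl, -0.79 to -0.47 with Cry1, 0.67 to 0.87 with Nr1d2, -0.12 to 0.42 with Per1, -0.35 to 0.0070 with Per2, and -0.44 to 0.14 for Per1 with Fos. No paired analysis was possible because the columns carry no replicate numbers. Depth is unknown, and 3 libraries a group limit the precision.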
